A study of Mus musculus with 20 samples.

Results

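The 9 genes described here are the apolipoproteins Apoe and Apod, the lipid exporters Abca1 and Abcg1, the lipoprotein receptors Vldlr, Lrp8, Lrp1 and Scarb1, and the cholesterol-esterifying enzyme Lcat. They were chosen by name and not by a measured value, though earlier results of these data were known. The names are among the 23413 gene names in the count tables of 20 mouse cortex libraries. All 20 mice were APOE4 knock-in animals, in which the human APOE4 sequence stands in place of the coding sequence of mouse Apoe, so the controls carried it too. They were sampled at the age of 22 months, after 12 months from the age of 10 months on isocaloric amounts of a control diet (CD) or a ketogenic diet (KD). The groups were 5 CD-fed females, 4 KD-fed females, 5 CD-fed males and 6 KD-fed males, each mouse with 1 library of total RNA, and no mouse with another APOE genotype was among them. Mice are named by the animal number in the labels (E228, for example).

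Lipids move between cells of the brain on particles that are built around apolipoproteins, chiefly apolipoprotein E from astrocytes. The exporters ABCA1 and ABCG1 load cholesterol and phospholipid onto these particles, LCAT esterifies their cholesterol, and receptors of the LDL receptor family take them up. Abca1 and Abcg1 are well-known targets of the liver X receptors, which respond to oxidised cholesterol, and VLDLR and APOER2 (Lrp8) are also the neuronal receptors of reelin. The APOE4 form is poorly lipidated and is the main genetic risk factor for late-onset Alzheimer's disease.

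Library totals were between 12207161 and 29109990 counts. The library numbers formed 2 series of 10, and each group had libraries in both, with 21015275 counts or more in series 1 and 17697342 or fewer in series 2. The labelled tissue was checked with lists of cell type and region markers. The summed level of 8 cortical excitatory neuron markers was between 336 and 417 CPM (the usual scaling of counts by the library total) in KD females E61, E68 and E207 and in CD female E249, and between 741 and 1035 CPM in the other 16 libraries. The summed level of 10 striatal markers was between 2366 and 2962 CPM in those 3 KD females, 1095 CPM in CD female E249 and 3604 CPM in KD male E59, against 234 to 596 CPM in the rest. KD male E59 also had 2356 CPM of choroid plexus markers, where the other libraries had at most 55.3 CPM. The Y-linked gene Ddx3y was at 14.0 CPM in CD female E228, at most 1.64 CPM in the other females and at least 164 CPM in the males. CD females E228 and E249, KD female E227, which lacked the marker shift of the other KD females, and KD male E59 were therefore left out together as an alternative chosen after these values were seen.

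Mouse Apoe, whose coding sequence the knock-in replaces, had the lowest level of the 9 genes. It had between 25 and 84 counts per library and between 1.33 and 3.34 CPM. In CD females it was at 2.88 (E228), 2.70 (E249), 2.30 (E265), 2.43 (E62) and 2.23 CPM (E67), and in KD females at 3.31 (E207), 2.21 (E227), 2.60 (E61) and 2.37 CPM (E68). In CD males it was at 3.34 (E51), 2.34 (E58), 1.33 (E66), 1.95 (E251) and 2.64 CPM (E264), and in KD males between 1.69 and 3.02 CPM with a median of 2.25. The 4 groups overlapped throughout. The log2 fold change of KD against CD was 0.0024 in females, with a 95% interval from -0.48 to 0.49, and 0.022 in males, from -0.41 to 0.45. These reads measure what aligned to the mouse gene and not the level of human APOE4, which was not analysed here.

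Levels were compared between genes only as CPM per kilobase of annotated exon, averaged over the 20 libraries. Apod, a lipocalin-type apolipoprotein made by glia, stood at 78.6 ± 16.9 (SD), above every other gene in each of the 20 libraries. Vldlr followed at 18.8 ± 5.12, Lrp1 at 15.2 ± 5.12, Abcg1 at 12.3 ± 2.01, Abca1 at 8.70 ± 2.77, Lrp8 at 6.71 ± 0.844 and Lcat at 5.21 ± 1.45. The ranges over libraries of each of these except Lcat overlapped those of the next in the order. Scarb1 at 1.196 ± 0.330 and mouse Apoe at 1.14 ± 0.238 were lowest, and Scarb1 was above Apoe in 12 of 20 libraries. Lcat was above Scarb1 in 20 of 20, with no overlap of their ranges.

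**Figure D1:**
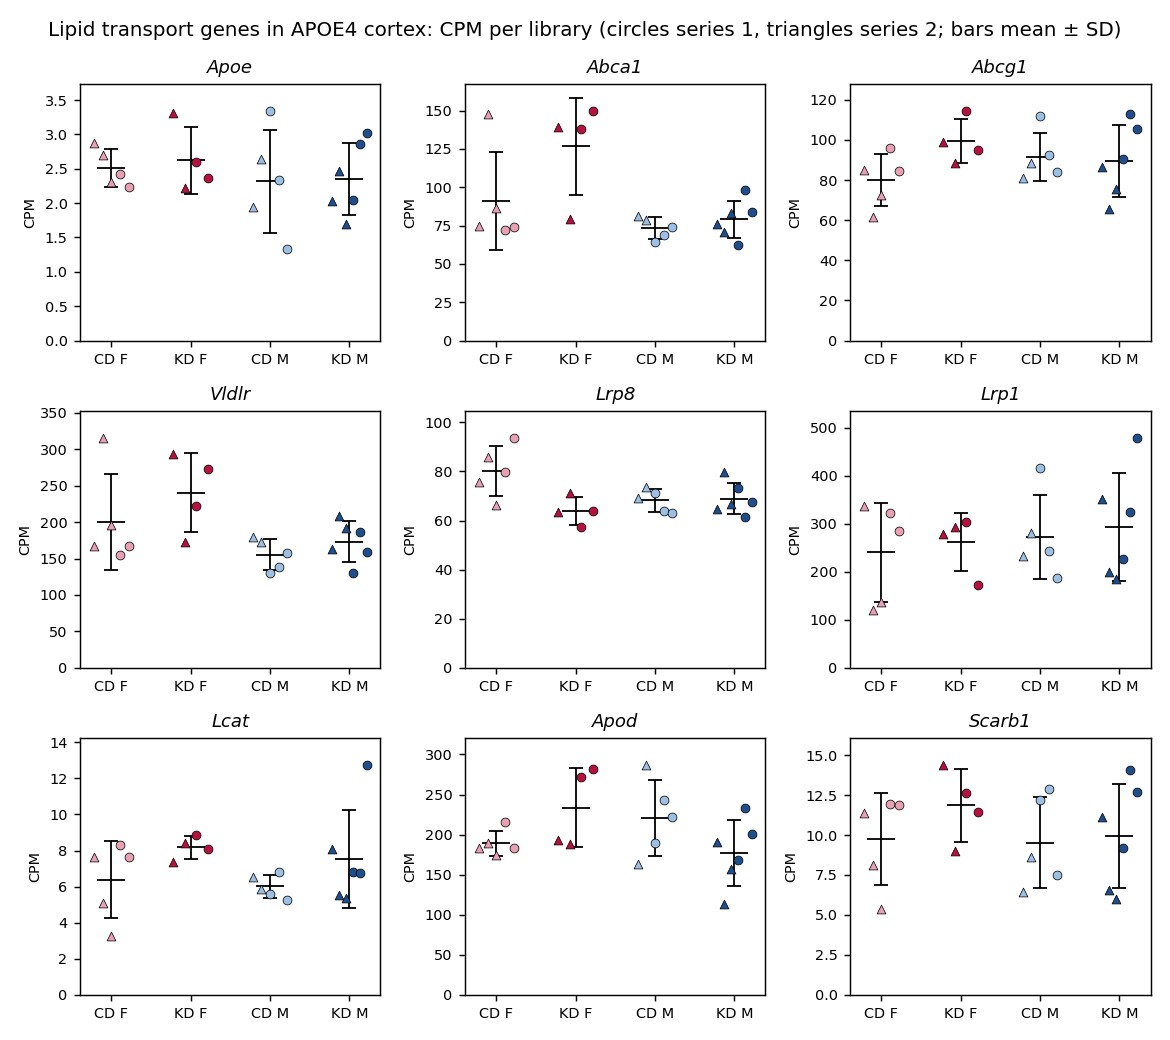
Level of each of the 9 genes in each library, in CPM on axes that start at 0, by diet group (CD or KD) in females (F) and males (M). Circles are libraries of series 1, triangles those of series 2, and bars give the mean ± SD of the group. Abca1 and Vldlr each show 1 high CD female (E249) and 1 low KD female (E227), and the CD and KD points of all 9 genes overlap in both sexes.

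The diet comparison asked which of these genes differed between KD and CD within each sex. None of the 9 genes passed the threshold (FDR 0.1 and a 1.5-fold change in edgeR's quasi-likelihood test) in either sex, where 7 of 15660 genes tested did in females (0.0447%) and 0 in males. All 9 passed the filter on low counts. At an unadjusted p under 0.05 there were 2 of 9 in females, Abcg1 and Lrp8, where 11.4% of all genes tested were under it, and 1 of 9 in males, Apod, where 3.56% were. None of the 9 had CPM ranges that were apart between KD and CD, against 2.10% of all genes in females and 0.217% in males. The fitted difference was above 0 for 8 of 9 genes in females, where their median on the log2 scale was 0.21 and that of all genes 0.013, and for 6 of 9 in males, with a median of 0.085 where that of all genes was -0.0030. Among all genes the difference was above 0 for 52.7% in females and 49.1% in males. In cortex homogenate, fewer cells of a type and less RNA per cell cannot be told apart.

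**Figure D2:**
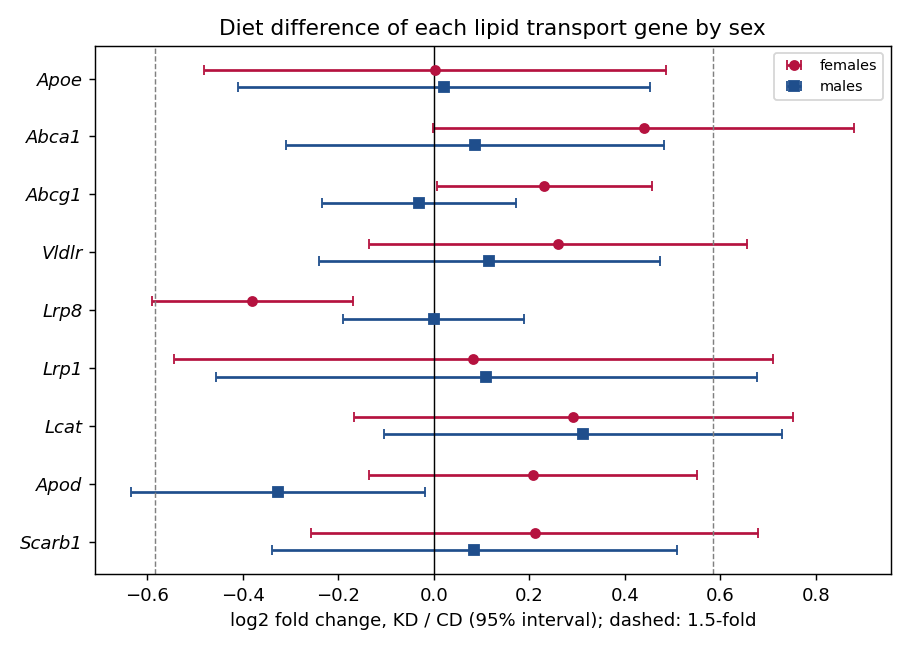
Log2 fold change of KD against CD for each gene (points) with its 95% interval (bars), in females (circles) and males (squares), from 1 fit of all 20 libraries. The dashed lines mark 1.5-fold. The interval of Lrp8 in females lies wholly below 0, from -0.59 to -0.17, and that of Abca1 in females reaches from -0.0024 to 0.88.

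Abca1, the transporter that starts the lipidation of apolipoprotein E, had the largest fitted difference of the 9 genes in females. In CD females it was at 74.5 (E228), 147.7 (E249), 86.6 (E265), 72.0 (E62) and 74.1 CPM (E67), and in KD females at 139.2 (E207), 79.5 (E227), 138.3 (E61) and 149.7 CPM (E68). Levels in females were thus either between 72.0 and 86.6 CPM or between 138.3 and 149.7 CPM, with 1 CD female in the upper range and 1 KD female in the lower. KD females averaged 127 ± 31.9 CPM (SD, n = 4) and CD females 91.0 ± 32.2 CPM (SD, n = 5). The fitted difference was 0.44 ± 0.21 (SE) on the log2 scale, with an edgeR adjusted p of 0.443. In males the range was 64.2 to 81.0 CPM on the CD, with a mean of 73.4 ± 6.94 CPM (SD, n = 5). On the KD it was 62.6 to 98.3 CPM, with a median of 79.5 and the highest value in E59. The log2 fold change in males was 0.086 ± 0.19 (SE), with an interval from -0.31 to 0.48.

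The 4 libraries with the highest Abca1 were the same 4 that had the low cortical excitatory and raised striatal marker sums. In the 5 other females, which had striatal marker sums between 235 and 307 CPM, Abca1 was at most 86.6 CPM. KD male E59, with the highest striatal marker sum, had the highest Abca1 of the males at 98.3 CPM. Between KD and CD females, 8 of the 10 striatal markers were higher (median 2.10 on the log2 scale) and 5 of the 8 cortical excitatory markers lower (median -0.97), each counted at an unadjusted p under 0.05. With the score of the striatal markers added as a covariate, Abca1 in females had -0.011, and with the cortical excitatory score, a fit added after the data were seen, -0.081. In library series 1 alone the difference was 0.94 and passed the threshold (adjusted p 0.0345, 865 of 15966 genes called), and in series 2 alone it was 0.022. The only females of series 1 were E61 and E68 on the KD and E62 and E67 on the CD. Their striatal marker sums were 2565 and 2366 CPM on the KD and 262 and 285 CPM on the CD. In the females of series 1, diet and the marker shift therefore cannot be told apart. Abca1 in females also passed without CD female E249 (0.66, edgeR adjusted p 0.0319), without KD female E227 (0.65, adjusted p 0.0714) and without all 4 libraries that stood apart (0.82, adjusted p 2.6e-04). The genes called in these fits were 1046 of 15710, 906 of 15949 and 1827 of 15895. Leaving out E249 or E227 also leaves the marker sums of the CD and KD females further apart. Without the 4 libraries the difference between females and males in the response to diet was 0.83 for Abca1 (edgeR adjusted p 0.00381), against 0.35 with all libraries (adjusted p 0.9999). For this difference 869 of 15895 genes were called without the 4 libraries, against 0 of 15660 with all libraries. The KD females kept there, E61, E68 and E207, all had the low cortical excitatory and raised striatal sums, and no other library kept did. That fit therefore cannot tell a difference in the response to diet from that of the markers. With all libraries and the striatal or the cortical excitatory score as a covariate, the difference in response was -0.0072 and -0.073.

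The promoter of Abca1 is shown because the liver X receptor element that it is known for is a sequence feature, and that of Vldlr because its level followed that of Abca1 most closely among the 9 genes. Both are the 250 bases before the annotated start, 5′ to 3′ on the strand of the gene, from RefSeq on GRCm38.p6. Abca1 lies on chromosome 4 (chr4:53159896-53160145, minus strand) and Vldlr on chromosome 19 (chr19:27216234-27216483, plus strand). Capitals mark, in order, an E-box (CACGTG) at -147 from the start, the liver X receptor element at -67, which on the other strand reads GGTTA and, after 5 further bases, GGTCA, and a TATA box (TATAAA) at -29.
Abca1: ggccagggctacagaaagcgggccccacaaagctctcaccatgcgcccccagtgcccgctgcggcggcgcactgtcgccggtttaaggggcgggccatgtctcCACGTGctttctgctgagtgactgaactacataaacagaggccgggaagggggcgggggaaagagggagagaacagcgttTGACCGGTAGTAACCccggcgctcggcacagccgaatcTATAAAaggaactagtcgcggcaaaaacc
Vldlr: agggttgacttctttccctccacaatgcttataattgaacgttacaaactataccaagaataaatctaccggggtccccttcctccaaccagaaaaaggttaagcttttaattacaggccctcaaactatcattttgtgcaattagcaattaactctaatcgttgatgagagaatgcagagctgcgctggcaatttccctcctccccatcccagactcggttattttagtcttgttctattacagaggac
The motifs were chosen after the sequence of Abca1 had been seen, and they were searched on both strands of 32851 RefSeq promoter entries of this length. The liver X receptor element, with any 5 bases between its words, was in 15 of them (0.0457%), CACGTG in 1978 (6.02%) and TATAAA in 4063 (12.4%). Of the 9 genes 7 had an entry, and Abca1 was the only member with the first motif or with CACGTG, while TATAAA was in those of Abca1 and Apoe. The motif of the peroxisome proliferator-activated receptors, a repeat of AGGTCA with 1 base between, was in 11 entries (0.0335%) and in none of the members. The Vldlr window held none of the 4 motifs. A match describes letters in a window and was not tested for a role.

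**Figure D3:**
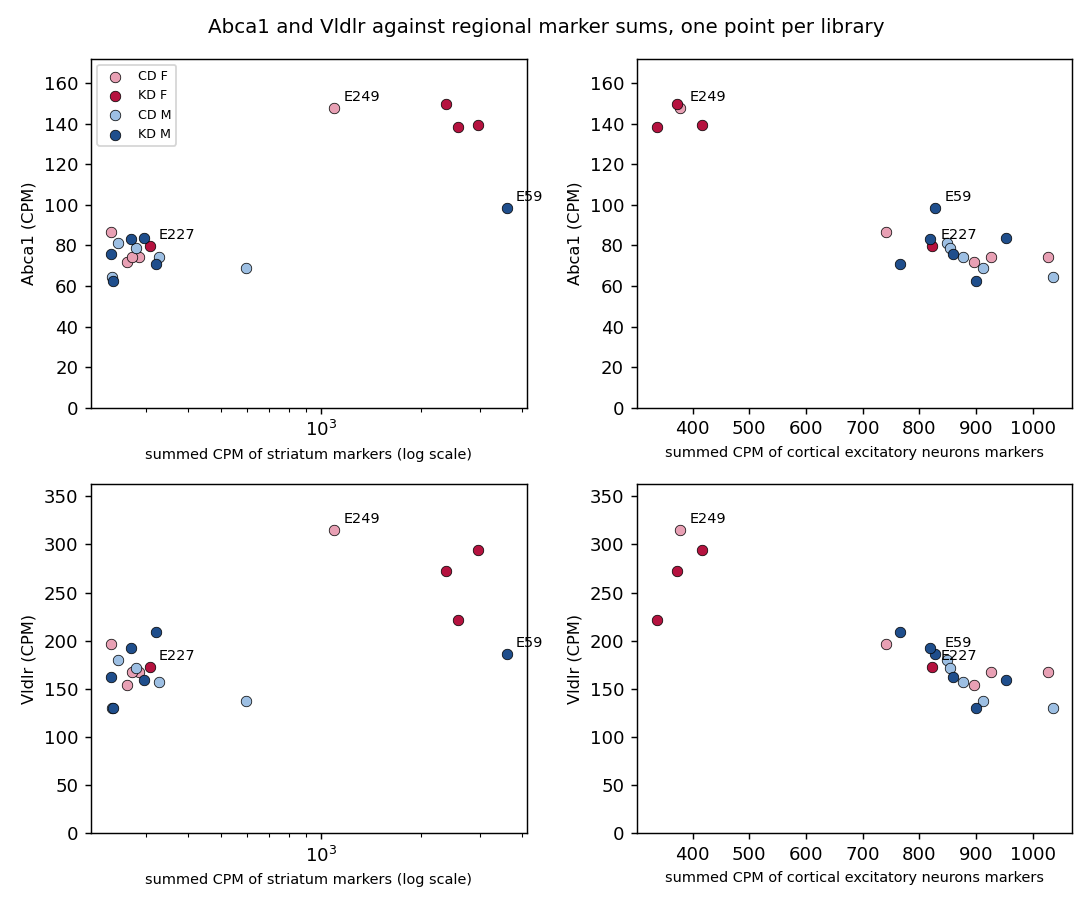
Levels of Abca1 (upper panels) and Vldlr (lower panels) in CPM in each library, against the summed CPM of 10 striatal markers (left, log scale) and of 8 cortical excitatory neuron markers (right). The 4 libraries with cortical excitatory sums of at most 417 CPM, 3 KD females and CD female E249, hold the 4 highest levels of both genes, and KD male E59 has a high striatal sum with a cortical excitatory sum of 828 CPM.

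Abcg1, which adds lipid to particles that ABCA1 has begun, was at 85.3 (E228), 61.7 (E249), 72.7 (E265), 96.1 (E62) and 84.5 CPM (E67) in CD females. In KD females it was at 99.1 (E207), 88.7 (E227), 114 (E61) and 95.1 CPM (E68). KD females E207 and E61 lay above all CD females, and the other 2 lay within their range. It differed by a log2 fold change of 0.23 ± 0.11 (SE), with an unadjusted p of 0.0445 and an adjusted p of 0.424 in edgeR. KD males averaged 89.4 ± 17.9 CPM (SD, n = 6) and CD males 91.5 ± 12.2 CPM (SD, n = 5). Their log2 fold change was -0.031, with an interval from -0.23 to 0.17. CD female E249, the highest of the CD females for Abca1, was the lowest of all 20 libraries for Abcg1. A small RNA gene, Gm25447, lies within Abcg1 on the same strand, and counts there cannot be assigned with certainty.

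Vldlr, a receptor for apolipoprotein E particles and for reelin, was at 167 (E228), 315 (E249), 196 (E265), 154 (E62) and 167 CPM (E67) in CD females. In KD females it was at 294 (E207), 172 (E227), 222 (E61) and 273 CPM (E68). The same CD female as for Abca1 was high and the same KD female low, so the groups overlapped. KD against CD females gave a log2 fold change of 0.26 ± 0.19 (SE) with an edgeR adjusted p of 0.678. It was 0.13 without KD female E68, 0.44 without KD female E227 and 0.44 without CD female E249. Adding the striatal score as a covariate gave -0.12, against -0.19 for the cortical excitatory score and -0.023 in series 2 alone. In males Vldlr was between 130 and 180 CPM on the CD and between 130 and 209 CPM on the KD, with a log2 fold change of 0.12 and an interval from -0.24 to 0.47. Over the 20 libraries, with the mean of each series removed, the log2 CPM of Vldlr and Abca1 had a Pearson r of 0.95 and a Spearman rho of 0.79, the highest Pearson r of any pair among the 9 genes. The points share library, depth and the marker differences above, so r is given without a test.

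Lrp8 encodes APOER2, the receptor through which reelin and apolipoprotein E act at synapses. In CD females it was at 75.7 (E228), 85.7 (E249), 66.4 (E265), 79.6 (E62) and 93.5 CPM (E67), and in KD females at 63.4 (E207), 71.2 (E227), 57.2 (E61) and 63.97 CPM (E68). Every KD female except E227 lay below every CD female. The means were 63.9 ± 5.76 CPM (SD, n = 4) and 80.2 ± 10.2 CPM (SD, n = 5), a log2 fold change of -0.38 ± 0.10 (SE). This was the smallest p of the 9 genes in females, 0.00125 unadjusted, which ranked 97 of 15660 genes and gave an edgeR adjusted p of 0.194. In males Lrp8 was at 71.4 (E51), 63.8 (E58), 63.1 (E66), 69.2 (E251) and 73.6 CPM (E264) on the CD. On the KD it was between 61.6 and 79.7 CPM with a median of 67.2, a log2 fold change of -0.00036 and an interval from -0.19 to 0.19. The difference between females and males in the response to diet was -0.38 with an edgeR adjusted p of 0.9999 (0.0111 unadjusted). For this difference 2.14% of all genes had an unadjusted p under 0.05.

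In females the fitted difference of Lrp8 was below 0 in all 34 alternative fits, from -0.55 in series 1 alone to -0.24 in series 2 alone. Adding the striatal or the cortical excitatory score gave -0.31 and -0.34 (edgeR adjusted p 0.867 and 0.501). The adjusted p was under 0.1 in 6 of the fits, and each of the 6 had less than a 1.5-fold change. They included the DESeq2 Wald test (0.0322) and the edgeR likelihood ratio test (0.0787). The others were edgeR fits of fewer libraries. These were series 1 alone (0.0765), without CD female E249 (0.0543), without KD female E227 (0.0354) and without the 4 libraries that stood apart (0.0257). Such fits called 865 of 15966, 1046 of 15710, 906 of 15949 and 1827 of 15895 genes. The Wald test called 253 of 15568 and the likelihood ratio test 220 of 15660. All these counts are at FDR 0.1 and a 1.5-fold change, which Lrp8 did not reach, and counts at FDR 0.1 alone are not given here. The fits of fewer libraries also leave the marker sums of CD and KD females further apart. Averaged over both sexes the log2 fold change of Lrp8 was -0.19 with an edgeR adjusted p of 0.203. In that comparison 42 of 15660 genes (0.268%) passed the threshold and none of the 9 did. Lrp8 was the only 1 of the 9 at an unadjusted p under 0.05 over both sexes, where 13.9% of all genes were. The antisense genes Lrp8os1 and Lrp8os2 overlap Lrp8, and since the counted strand is not stated, their reads may be among these counts.

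Lrp1, a large endocytic receptor of neurons and glia, ranged widely within each group. It was between 121 and 337 CPM in CD females, 172 and 303 in KD females, 188 and 416 in CD males, and 185 and 478 CPM in KD males. The log2 fold change was 0.083 in females, with an interval from -0.54 to 0.71, and 0.11 in males, from -0.46 to 0.68. It was -0.40 in females of series 1 alone, so the direction in females depended on the libraries used. The antisense gene Gm16217 overlaps Lrp1.

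Scarb1, the receptor for high-density lipoprotein, was between 5.40 and 14.3 CPM over all libraries, with 68 to 374 counts. Its log2 fold change was 0.21 in females, with an interval from -0.26 to 0.68, and 0.085 in males, from -0.34 to 0.51. Adding the striatal score gave -0.041 in females, and leaving out KD female E207 gave -0.012. Gm42633 overlaps Scarb1 on the same strand.

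Lcat, the enzyme that esterifies cholesterol on the particles, was at 7.63 (E228), 5.08 (E249), 3.26 (E265), 8.28 (E62) and 7.62 CPM (E67) in CD females. In KD females it was at 7.36 (E207), 8.43 (E227), 8.85 (E61) and 8.10 CPM (E68). The KD females lay within the upper part of the CD range or just above it. In males it was between 5.28 and 6.84 CPM on the CD and between 5.35 and 12.7 CPM on the KD, where E64 alone was above 8.07 CPM. The log2 fold change was 0.29 ± 0.22 (SE) in females and 0.31 ± 0.20 (SE) in males, with edgeR adjusted p of 0.696 and 0.9998. Without CD female E265 the difference in females was 0.16, and without KD male E64 that in males was 0.14. Gm16156 overlaps Lcat on the other strand.

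Apod was at 183 (E228), 190 (E249), 175 (E265), 215 (E62) and 183 CPM (E67) in CD females, and at 193 (E207), 189 (E227), 271 (E61) and 282 CPM (E68) in KD females. The 2 KD females of series 1 lay above all CD females, and the 2 of series 2 lay among them. In males it was at 189 (E51), 244 (E58), 222 (E66), 164 (E251) and 286 CPM (E264) on the CD, and between 113 and 233 CPM with a median of 180 on the KD. The log2 fold change was 0.21 ± 0.16 (SE) in females and -0.33 ± 0.15 (SE) in males, the latter with an unadjusted p of 0.0386 and an edgeR adjusted p of 0.9998. Without KD female E68 the difference in females was 0.13, and without CD male E264 that in males was -0.15. The difference between females and males in the response to diet was 0.53 (unadjusted p 0.0255, edgeR adjusted p 0.9999).

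Markers of oligodendrocytes, the myelinating glia that express Apod, differed in the same directions. In KD males all 8 of their markers had values below those on the CD (median -0.41 on the log2 scale, 2 at an unadjusted p under 0.05). In KD females all 8 had values above those on the CD (median 0.25, 0 at such a p). Their summed level was between 2655 and 4692 CPM in CD males and between 1480 and 4219 CPM in KD males, and it was 2880 to 3478 CPM in CD females and 3436 to 4526 CPM in KD females. KD male E254 had both the lowest Apod of all libraries and the second lowest of these sums, 1663 CPM. KD male E64, with the lowest sum, had 200.4 CPM of Apod, above the median of 180 CPM in KD males and below E59 alone among them. CD male E264 had the highest Apod of all libraries, 286 CPM, with the lowest sum of the CD males, 2655 CPM. The part of these markers in the Apod values was not tested.

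Between the sexes, averaged over both diets, Abca1 was higher in females by 0.47 and Vldlr by 0.38 on the log2 scale, with unadjusted p of 0.00322 and 0.00722 and edgeR adjusted p of 0.190 and 0.226. These were 2 of 9 genes under an unadjusted p of 0.05, where 13.6% of all genes were, and 0 of 9 passed the threshold, where 21 genes (0.134%) did. Abca1 was between 72.0 and 150 CPM in the 9 females and between 62.6 and 98.3 CPM in the 11 males. The difference of Abca1 was 0.0055 and that of Vldlr -0.0062 with the cortical excitatory marker score as a covariate. With all libraries that stood apart left out they were 0.52 and 0.44, with edgeR adjusted p of 6.04e-04 and 0.00461, both under a 1.5-fold change. In that fit 757 of 15895 genes passed the threshold between the sexes. It keeps KD females E61, E68 and E207, with the low cortical excitatory sums, and no male had such a sum. The fit therefore cannot tell a difference between the sexes from that of the markers.

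The genes whose log2 CPM followed a member most closely over the 20 libraries were taken by the highest Pearson r after the mean of each series was removed. For Abca1 they were Dock10 (0.98) and Abca8a (0.97), for Vldlr Zfp804a (0.98) and Ppp1r2 (0.97), and for Abcg1 Sptb (0.92) and Chrm4 (0.91). For Lrp1 the gene given is Smarca4 (0.98), for Scarb1 they were Slc38a3 (0.95) and Kcnh2 (0.93), and for Lcat Lman2 (0.91) and Traf3 (0.90). Apoe (Bahcc1 0.85, Rgma 0.84), Apod (Igfbp7 0.81, Endod1 0.78) and Lrp8 (Apobr 0.77, 3200001D21Rik 0.76) had lower values. The highest Pearson r of Lrp8 was thus the lowest among the members, and negative correlations were not ranked. The order differed by Spearman rho. With the first gene given it was 0.78 for Lrp8, 0.77 for Apoe and 0.70 for Apod, and with the second 0.70, 0.78 and 0.82. The libraries share depth and tissue composition, and these values are descriptions over 20 libraries.

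Of 76 other genes of lipid transport in 6 lists, 66 were tested and none passed the threshold in females or males. At an unadjusted p under 0.05, 6 were higher and 2 lower in KD females, where 5.86% and 5.50% of all genes were. In males 7 were higher and 1 lower, where 2.37% and 1.19% were. The median log2 fold change of the 66 genes was 0.081 in females and 0.042 in males.

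Among the lipoprotein enzymes and transfer proteins, Lpl, the lipase that frees fatty acids from lipoproteins, was at 12.6 (E228), 25.4 (E249), 20.5 (E265), 15.04 (E62) and 15.8 CPM (E67) in CD females. In KD females it was at 41.9 (E207), 23.6 (E227), 38.7 (E61) and 41.0 CPM (E68). CD female E249 alone reached the lowest KD female. KD against CD gave 0.93 ± 0.27 (SE) in females and 0.63 ± 0.24 (SE) in males on the log2 scale, with edgeR adjusted p of 0.214 and 0.9998. It passed the threshold in females by the edgeR likelihood ratio test (adjusted p 0.0675) and the DESeq2 Wald test (adjusted p 0.0671), and in edgeR without CD female E249 (1.11, adjusted p 0.0249) or KD female E227 (1.09, adjusted p 0.0366). The genes called in these fits were 220 of 15660, 253 of 15568, 1046 of 15710 and 906 of 15949. Lpl in females also passed in edgeR with series 1 alone (1.33, adjusted p 0.0416, 865 of 15966 genes called). Without the 4 libraries that stood apart it passed too (1.18, edgeR adjusted p 5.97e-04, 1827 of 15895 genes called). In both of these fits every KD female had the raised striatal sum and no CD female did. In males Lpl was between 14.4 and 21.8 CPM on the CD and between 18.2 and 54.6 CPM on the KD, the highest in E59. Without E59 the log2 fold change in males was 0.37. KD females E207, E61 and E68 and KD male E59 had the highest Lpl of all libraries. They also had the highest striatal marker sums, from 2366 to 3604 CPM. Lpl was also fitted with the marker scores as covariates, and those values are not given here. Apart from those fits the part of these markers in the Lpl values was not tested. The fatty acid transporter Cd36 was at 3.72 CPM on the KD and 1.27 CPM on the CD in males (log2 fold change 1.53, edgeR adjusted p 0.9998). KD males E64, at 8.75 CPM, and E254, at 6.87 CPM, lay above all other males, and without E64 the log2 fold change was 0.94. E64 and E254 also had the highest summed levels of 6 meningeal fibroblast markers of all libraries, 370 and 184 CPM. Their oligodendrocyte sums were the lowest, 1480 and 1663 CPM. The part of these markers in the Cd36 values was not tested. Scarb2, a lysosomal membrane protein, had the highest CPM of the list and log2 fold changes of 0.061 and -0.15.

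Among the receptor partners, Lrpap1, the chaperone of LDL receptor family proteins, had 0.34 in females on the log2 scale (edgeR adjusted p 0.328). Reln, the ligand of VLDLR and APOER2, ranged from 98.4 to 187 CPM in CD males and from 143 to 431 CPM in KD males, with E254 at 431 and E64 at 424 CPM. Its log2 fold change in males was 0.94 ± 0.28 (SE), which ranked 20 of 15660 genes by p, with an edgeR adjusted p of 0.9998. Without KD male E64 it was 0.70. E64 and E254 were the libraries with the highest meningeal fibroblast and the lowest oligodendrocyte marker sums. The part of these markers in the Reln values was not tested. Crk, an adaptor of reelin signalling, had the highest CPM of the list and log2 fold changes of -0.11 and 0.0042.

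In the LDL receptor family, Sorl1, the sorting receptor that binds the amyloid precursor protein, was at 554 (E228), 193 (E249), 310 (E265), 455 (E62) and 478 CPM (E67) in CD females. In KD females it was at 301 (E207), 303 (E227), 245 (E61) and 241 CPM (E68). CD female E249 was the lowest of all libraries, and the other CD females lay above the KD females. The log2 fold change in females was -0.60 ± 0.20 (SE) with an edgeR adjusted p of 0.255, and it was -0.77 without CD female E249 (adjusted p 0.0109) and -0.43 without CD female E228 (adjusted p 0.432). In series 1 alone it was -0.98 (adjusted p 0.0143) and in series 2 alone -0.29 (adjusted p 0.839). With the cortical excitatory score as a covariate Sorl1 had -0.12 (adjusted p 0.792), and with the striatal score -0.53 (adjusted p 0.867). CD female E249 and KD females E61, E68 and E207, with the low cortical excitatory sums, had the 4 lowest levels of Sorl1 among the 9 females, and the part of these markers in the Sorl1 values was not tested apart from these fits. Lrp11 had -0.22 in females (edgeR adjusted p 0.366), and Sort1, the gene of highest CPM in this family, had -0.22 in females and 0.0041 in males. None of the 15 genes was under an unadjusted p of 0.05 in males.

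Of 15 other apolipoproteins 7 were tested. Apoc1, a small apolipoprotein that lies beside Apoe, was between 0.318 and 0.811 CPM in CD females and between 0.957 and 2.06 CPM in KD females, without overlap (as were 2.10% of all genes), on 4 to 53 counts per library. In females it had a log2 fold change of 0.99983 ± 0.41 (SE) and in males 1.02 ± 0.37 (SE), with edgeR adjusted p of 0.355 and 0.9998. Without KD male E64 it was 0.67 in males. Clusterin (Clu), an abundant apolipoprotein of astrocytes, had log2 fold changes of 0.24 and 0.13.

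Among the 11 other exporters, Abca8b was between 42.0 and 67.04 CPM in CD males and between 47.7 and 79.4 CPM in KD males, a log2 fold change of 0.28 ± 0.11 (SE) with an edgeR adjusted p of 0.9998. Abca4 had 1.23 in males and 0.42 without KD male E59. Abca5, the exporter of highest CPM, had -0.18 in females and 0.017 in males. Among the sterol regulators, Srebf1, which switches on fatty acid synthesis, differed by 0.49 on the log2 scale in females and Npc2, which carries cholesterol out of lysosomes, 0.28 (edgeR adjusted p of 0.421 and 0.303). Npc2 was between 33.0 and 51.1 CPM in CD females and between 51.9 and 68.3 CPM in KD females. These ranges did not overlap, as was so for 2.10% of all genes in females. Insig1, which holds back sterol synthesis and had the highest CPM of its list, had -0.24 in males with an edgeR adjusted p of 0.9998.

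**Figure D4:**
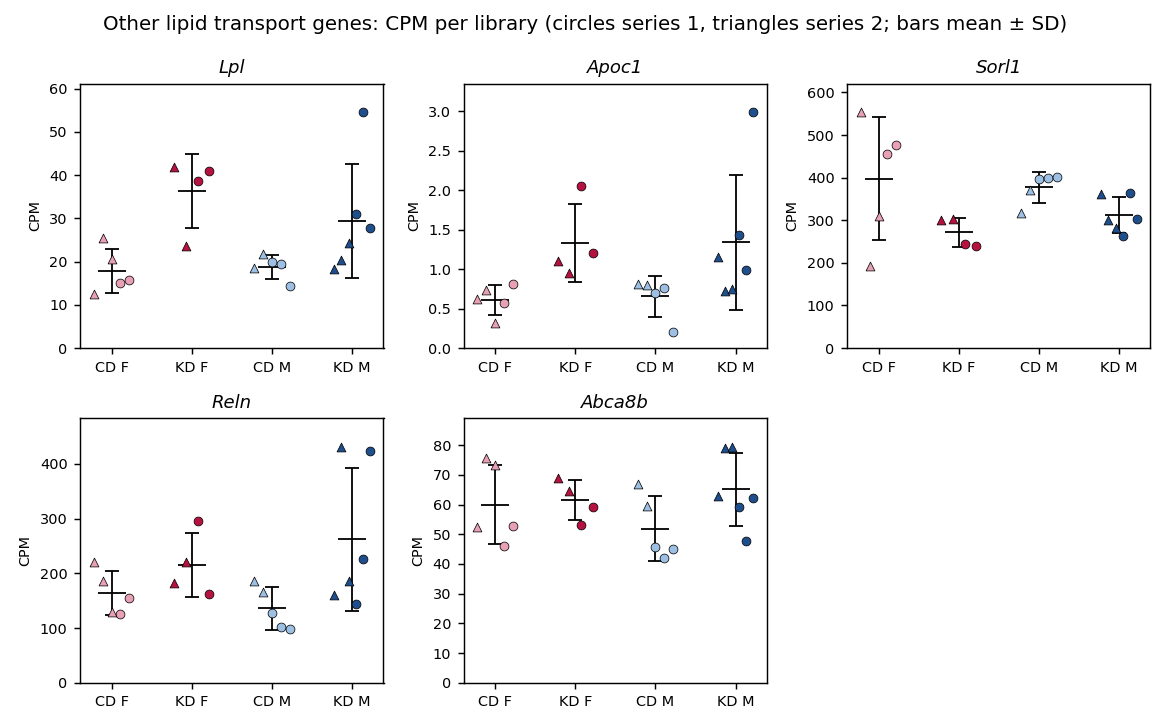
Level of 5 other lipid transport genes in each library, in CPM on axes that start at 0, by diet group in females (F) and males (M), with bars for the mean ± SD (circles series 1, triangles series 2). Lpl is high in 3 of 4 KD females and in KD male E59, the libraries with the highest striatal marker sums. Reln is at 424 and 431 CPM in 2 KD males.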

How the data were processed

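Total RNA of 20 cortex samples was sequenced as stranded libraries, 1 per mouse. Alignment by the authors was with STAR, reads were counted per gene with the HTSeq method within it, and raw counts were deposited without normalization. Per the submitters' processing notes the build was mm10. Versions, annotation and the strand counted are not given in the sources used here, so reads of overlapping and antisense genes cannot be told apart. Groups came from the labels, whose SD is the CD of the study, and the 2 series from the library numbers. Replicates are mice, which the study housed singly. All 41 pairs within a group differed by more than sampling noise (chi-square per degree of freedom 7.25 to 115).

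CPM were computed from the deposited counts and library totals, and 2 was the prior count for log2 CPM. KD and CD were compared with edgeR 4.0.16 (R 4.3.3), and filterByExpr kept 15660 genes. The quasi-likelihood F test had robust dispersions, upper-quartile normalization, the 4 groups and the series as a term, and Benjamini-Hochberg adjustment over all genes. Genes passed at FDR 0.1 and a 1.5-fold change. The difference between females and males in the response to diet is the interaction of this fit. Since the study states RUVg without its number of factors or control genes, it was run with 1 factor as an alternative, with all but the 5000 genes of smallest p as controls. The other alternatives were TMM and DESeq2 1.42.0 size factors, other filters, no series term, marker scores as covariates, each sex or series alone, the likelihood ratio test, the DESeq2 Wald test and each mouse left out. The scripts were tested on simulated data. Intervals have a level of 95% and are of the fit.

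Of the 23413 names, 21780 matched GENCODE M21 on GRCm38, which gave exon lengths and overlaps, and 7 of the 9 genes matched RefSeq promoters on GRCm38.p6. The genes named are the 9 members, every gene of 6 other lists at an unadjusted p under 0.05 in females or males, the gene of highest CPM in each of these lists, and the 2 genes most correlated with each member, except 2 genes that are not reported here. The members and lists were chosen with earlier results of these data known. Human APOE, proteins and plasma lipids were not analysed here.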

Additional observations from a re-analysis of the deposited data

Results flagged for a closer look

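In 4 of 36 groups of libraries, each holding the values of 1 of the 9 genes in 1 diet group, the highest or lowest library lay far from the others. By chance alone about 1 in 20 groups would be so marked, which is 1.8 of 36. Abca1 in CD females was marked because of E249, at 147.7 CPM against 72.0 to 86.6 CPM, with a gap of 0.808 of the whole range. Abca1 in KD females was marked because of E227, at 79.5 CPM against 138.3 to 149.7 CPM, with a gap of 0.839 of the range. Vldlr in CD females was marked because of E249, at 315 CPM against 154 to 196 CPM, with a gap of 0.738 of the range. Lcat in KD males was marked because of E64, at 12.7 CPM against at most 8.07 CPM, with a gap of 0.630 of the range. KD male E64 also had the highest summed level of 6 meningeal fibroblast markers, 370 CPM, where the other KD males had 62.4 to 184 CPM. The part of these markers in the Lcat value was not tested.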

How the results depend on the processing

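No paired analysis was possible because each replicate number is an animal's own and none recurs in another group. Over 34 alternative fits, 20 of which leave out 1 library each, none of the 9 genes passed the threshold except Abca1, in females in 4 fits and in the interaction in 1. The number passing was thus 1 in females with series 1 alone and without the 4 libraries that stood apart (a set chosen after seeing the data), 0 to 1 with 1 library left out (1 without CD female E249 or KD female E227), and 1 in the interaction without the 4 libraries. Of all genes in females, 865 of 15966 passed with series 1 alone and 1827 of 15895 without the 4 libraries. Without E249 it was 1046 of 15710 genes, and without E227 906 of 15949. In the interaction without the 4 libraries 869 of 15895 genes passed. The cause of these changes was not tested. TMM and DESeq2 size factors moved the median of all genes by less than 0.1 on the log2 scale.

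The number of the 9 genes at an unadjusted p under 0.05 follows, with the share of all genes tested in brackets. In females, 2 as reported (11.4%), it was 1 with TMM, DESeq2 size factors, no filter and no series term (9.32% to 11.4%). It was also 1 with the striatal covariate (5.34%), each sex alone (7.76%) and DESeq2 (12.1%). It was 4 with RUVg (15.6%) and series 1 (17.4%), 0 in series 2 (2.70%), and 1 to 3 with 1 library left out (6.39% to 18.7%). In males, 1 as reported (3.56%), it was 0 with each sex alone (4.50%) and in series 1 (6.08%). With 1 library left out it was 0 to 1 (1.51% to 5.06%). In the interaction it was 1 with the striatal covariate (1.47%), 0 in series 2 (0.944%) and 5 without the 4 libraries (14.9%). It was 1 to 3 there with 1 library left out (1.21% to 6.92%). Over both sexes it was 1 as reported (13.9%), 4 with RUVg (18.4%), 3 in series 1 (18.2%) and 3 without the 4 libraries (23.4%). There it was 0 in series 2 (1.29%), 2 with DESeq2 (14.8%) and 2 with the cortical excitatory covariate (1728 of 15660 genes). It was 1 to 3 over both sexes with 1 library left out (9.70% to 20.3%). Between the sexes it was 0 with the striatal (3.61%) or the cortical excitatory covariate (1.52%) and in series 2 (3.52%). Of the other lipid genes, 8 as reported in females (11.4%), it was 2 with the striatal covariate (5.34%) and in series 2 (2.70%). It was 21 without the 4 libraries (23.8%), and in males 0 in series 2 (0.311%).

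Directions turned for these values. In females, Apoe was -0.00068 with TMM, -0.0062 with DESeq2 size factors, -0.0094 with no filter, -0.018 with RUVg, -0.20 with the striatal and -0.092 with the cortical excitatory covariate, -0.0028 in series 2 and -0.0088 with DESeq2 (-0.15 to 0.076 with 1 library left out). Abca1 was -0.011 and -0.081, and Vldlr -0.12 and -0.19, with the striatal and the cortical excitatory covariate, and in series 2 Vldlr was -0.023 and Apod -0.0059. Lrp1 was -0.40 in series 1 (-0.075 to 0.31 with 1 library left out), and Scarb1 -0.041 with the striatal covariate and -0.025 in series 1 (-0.012 to 0.34). In males, Apoe was -0.023 with the striatal covariate, -0.14 in series 2 and -0.046 without the 4 libraries (-0.12 to 0.18 with 1 library left out). Abca1 was -0.0040 and -0.0082 with the covariates, -0.053 in series 2 and -0.015 without the 4 libraries (-0.010 to 0.14). Abcg1 was 0.060 in series 1 (-0.089 to 0.017), and Lrp1 -0.063 in series 2 (-0.047 to 0.27). Scarb1 was -0.0060 to 0.16 with 1 library left out, and Abca4 -0.21 in series 2. Lrp8, at -0.00036 in males, was 0.0062 with TMM, 0.0032 with DESeq2 size factors, 0.00062 with no filter, 0.0065 with no series term, 0.0037 with RUVg, 0.013 and 0.0070 with the covariates, 0.0034 with DESeq2 and 0.030 without the 4 libraries (-0.050 to 0.026). In the interaction Abca1 was -0.0072 with the striatal and -0.073 with the cortical excitatory covariate, and Vldlr between the sexes was -0.0062 with the cortical excitatory covariate. Groups of 4 to 6 mice limit what can be seen.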

Other observations

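Some pairs among the 9 genes shared their pattern over the 20 libraries while others did not. After Abca1 and Vldlr, the highest Pearson r of log2 CPM was that of Abcg1 and Lrp1 (0.75). Apoe and Scarb1 had 0.69, Abcg1 and Scarb1 0.67, and Lrp1 and Lcat 0.66. The lowest value was that of Abcg1 and Lrp8 (-0.55), followed by Vldlr and Lrp1 (-0.45). Abca1 and Abcg1, which share regulation by the liver X receptors as background, had 0.13. These points share library and depth, and no test was made.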
